A study of Mus musculus with 100 samples.

Results

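The imprint protectors are proteins that keep the DNA methylation of imprinted loci on the parental allele where it was laid down in the germ line. Their RNA levels and parental alleles were followed in 7 genes, Zfp57, Zfp445, Trim28, Setdb1, Dppa3, Ctcf and Ctcfl, chosen by name out of 25965 genes of the expression table. All 7 were found in the table, and 6 of them passed the filter on low values. Ctcfl did not.

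RNA-seq was available for 18 libraries in 6 groups of 3 biological replicates. Female MEFs are embryonic fibroblasts from E13.5 F1 hybrid embryos of an i4F-BL6 mother (C57BL/6J with a doxycycline-inducible Oct4, Sox2, Klf4 and c-Myc cassette) and a CAST/EiJ father. F KSR2 and F KSR4 (female) and M KSR3 and M KSR5 (male) are iPSC lines from such MEFs. They were reprogrammed with doxycycline and then kept without it in Knockout Serum Replacement medium with LIF. Each line is 1 clone picked as a colony. Both female lines go back to MEFs of the same female embryo and both male lines to MEFs of the same male embryo. The MEFs and all 4 lines carry the cassette. TX 2i ESCs are the female ESC line TX1072, also from a C57BL/6 mother and a CAST father, grown in serum with LIF and with the inhibitors CHIR99021 and PD0325901. Every group is thus a C57BL/6 by CAST hybrid, so reads over strain differences were assigned to the maternal or the paternal allele, but no reciprocal cross was present, and maternal origin and C57BL/6 origin cannot be told apart. Replicates of a line are samples of the same clone, and p-values between lines measure the spread within those clones.

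Zfp57 and Zfp445 are zinc finger proteins with a KRAB domain that bind the methylated allele of imprinting control regions. The KRAB domain recruits Trim28, a scaffold, which brings in the H3K9 methyltransferase Setdb1 and DNA methyltransferase activity, so that the mark is copied at each division. Dppa3 (also called Stella) shields the maternal genome from TET-driven loss of methylation in the zygote, and keeps the maintenance factor Uhrf1 away from chromatin in oocytes. Ctcf binds the unmethylated maternal control region between Igf2 and H19 and insulates it, and Ctcfl (Boris) is its testis paralogue.

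Zfp57 reads a short methylated hexamer, TGCCGC. Its letters were searched on both strands in RefSeq promoter windows (GRCm38.p6, 250 bases before to 50 after each start), and 11.6% of 32851 windows held them. Of 17 imprinted genes followed here, 13 had a window and 7 of these had at least 1 match (8 of 23 windows). Of the 7 imprint protectors, 5 had a window, and 1, Trim28, had a match. These stretches of 40 bases on the gene's strand are shown because they carry the letters Zfp57 is known to read, in capitals, just before the start of the paternally expressed genes Mest and Zdbf2, of the maternally expressed Meg3 and of Trim28 itself.
Mest, chr6:30737966-30738005: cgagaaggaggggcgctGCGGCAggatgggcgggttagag
Zdbf2, chr1:63200205-63200244: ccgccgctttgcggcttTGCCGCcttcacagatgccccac
Meg3, chr12:109540789-109540828: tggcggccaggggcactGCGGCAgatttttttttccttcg
Trim28, chr7:13024076-13024115: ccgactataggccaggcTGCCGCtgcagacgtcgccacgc
In Mest and Meg3 the hexamer lies on the opposite strand and reads GCGGCA here. A match of letters is a description of the sequence, and binding was not measured.

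For Ctcf, the core letters of its sites in the H19 control region, with 3 positions left free, were searched on both strands in the 5 kb before the start of each protein-coding and lncRNA gene. They stood in 0.151% of 34412 windows. The window before H19, on chromosome 7, held 3 matches, and no other window held as many; since these letters are known from this very region, their presence there is no finding. The stretches are printed on the H19 strand (GRCm38.p6), with the matched letters in capitals, to show the sites through which Ctcf acts on an imprinted locus.
3901 bases before H19, chr7:142582021-142582060: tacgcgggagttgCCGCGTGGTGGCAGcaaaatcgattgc
2631 bases before H19, chr7:142580751-142580790: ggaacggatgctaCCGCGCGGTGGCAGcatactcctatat
2176 bases before H19, chr7:142580296-142580335: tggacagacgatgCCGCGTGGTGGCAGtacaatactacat

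Depth ranged from 13183036 to 17921280 reads on genes (median 15722711), of which 17.7 to 19.9% were assigned to an allele. Levels are log2 RPM, the reads of a gene scaled to the total of the library, without correction for gene length. The labelled cell types were checked on marker genes. The summed level of 12 pluripotency genes was 2.28 to 3.33 RPM in female MEFs and 3004 to 6086 RPM in the other groups, and that of 15 fibroblast genes was 39549 to 51089 RPM in female MEFs and 584 to 1852 RPM elsewhere. Of the pluripotent libraries 3 stood apart. In F KSR4 replicate 2 the mean log2 level of the pluripotency genes was 6.78, against 7.32 to 8.04 in the other 14 pluripotent libraries, and in M KSR5 replicate 3 that of the fibroblast genes was 3.97, against 0.61 to 2.59 in the other 14; comparisons were also made without both. In F KSR4 replicate 3, genes with over 6 kb of exon were lower than genes with under 2 kb (by -0.91 on the log2 scale, relative to each gene's level in the pluripotent libraries), against -0.15 to 0.39 in the other pluripotent libraries. In each of the 5 pluripotent groups this difference was highest in replicate 1 (0.10 to 0.39) and lowest in replicate 3 (-0.91 to -0.0054). In these bulk samples, fewer cells of a type and less RNA per cell cannot be told apart.

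Per kb of exon, Trim28 was the most abundant of the 7 in every group, with 74.0 ± 10.3 RPM per kb in female MEFs and 372 to 456 RPM per kb as the mean of each pluripotent group. Zfp57 followed in the pluripotent groups at 99.1 ± 40.5 RPM per kb (SD over 15 libraries). Ctcf (43.7 ± 12.5), Dppa3 (38.9 ± 28.5) and Setdb1 (21.3 ± 6.94) came next on the same scale, and their ranges over libraries overlapped. Zfp445 was at 1.93 to 3.44 RPM per kb, below all of these, and Ctcfl at 0.0509 to 0.214 RPM per kb was the lowest. In female MEFs the order was Trim28, Ctcf, Zfp57, Setdb1 and Zfp445, with Dppa3 and Ctcfl near 0.

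**Figure D1:**
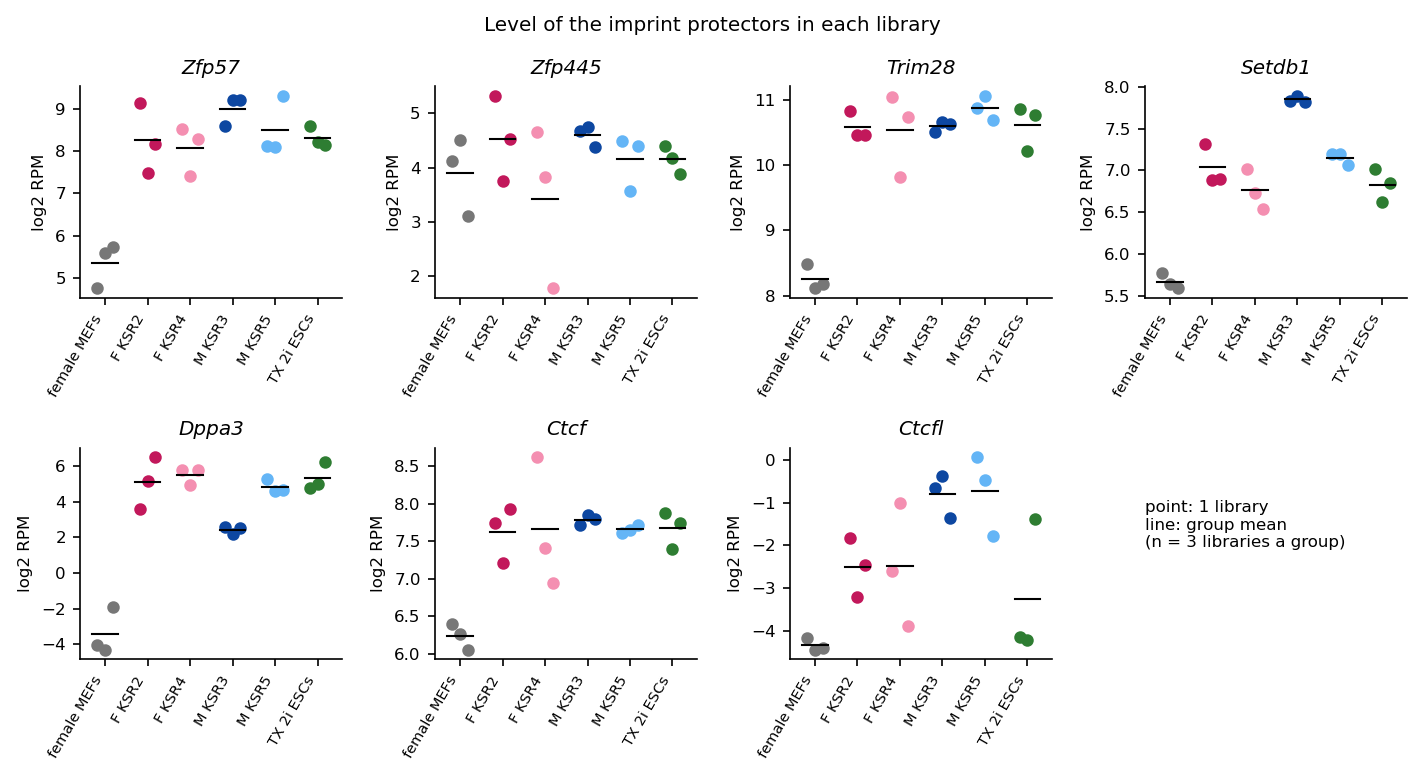
Log2 RPM of each imprint protector (panels) in each of the 18 libraries, by group, with a line at the group mean (n = 3 libraries a group). Zfp57, Trim28, Setdb1, Dppa3 and Ctcf lie lower in all 3 female MEF libraries than in any pluripotent library, while Zfp445 overlaps, and M KSR3 sits apart from the other lines for Setdb1 and Dppa3.

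The first comparison asked how far the imprint protectors differ between the pluripotent groups and the fibroblasts. Of the 6 members tested, 5 were higher in the pluripotent groups (limma, Benjamini-Hochberg adjusted p under 0.05), and Zfp445 was not called. The same test called 74.6% of all 14632 genes, and 42.1% of all genes upward, so a call in itself sets the members little apart. These 5 were also called in each pluripotent group set against female MEFs on its own, where the test called 66.5% of all genes in TX 2i ESCs, 67.9% in M KSR5, 67.6% in M KSR3, 65.8% in F KSR4 and 67.0% in F KSR2.

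Zfp57, the DNA-binding protein of the complex, lies on chr17:37001163-37010635 (plus strand). It was at 4.75, 5.58 and 5.72 log2 RPM in female MEFs, and at 7.42 to 9.32 in the 15 pluripotent libraries (9.15, 7.48 and 8.16 in F KSR2, 8.13, 8.10 and 9.32 in M KSR5, 8.53, 7.42 and 8.28 in F KSR4, 8.60, 8.23 and 8.15 in TX 2i ESCs, and 8.61, 9.22 and 9.22 in M KSR3). The groups did not overlap, and MEFs held 442 to 1003 reads of it. The difference was 3.09 on the log2 scale (SE 0.31, adjusted p = 9.63e-08), or 8.51-fold (95% interval 5.38 to 13.5).

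Trim28 lies on chr7:13024152-13031035 (plus strand). It was at 8.48, 8.11 and 8.18 log2 RPM in female MEFs and at 9.82 to 11.07 in the pluripotent libraries, a difference of 2.39 (SE 0.20, adjusted p = 8.88e-09). The lowest pluripotent library was F KSR4 replicate 2. Setdb1, on chr3:95323525-95357202 (minus strand), was at 5.77, 5.64 and 5.59 log2 RPM in female MEFs and at 6.53 to 7.90 in the others, a difference of 1.46 (SE 0.12, adjusted p = 8.39e-09). The deposited entry for Setdb1 has the name, span and probe strand (minus) of that gene but the identifier ENSMUSG00000015714 and the feature strand (plus) of Lass2 (Cers2), its overlapping neighbour; the other 6 members carry their own identifiers. The level and allelic values were taken as those of Setdb1 from the name, span and probe strand, and whether reads of Lass2 were counted in the entry was not tested. Lass2 has an entry of its own with other values, 0.12 lower in M KSR3 than in the other KSR lines on the log2 scale where Setdb1 was 0.87 higher.

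Zfp445, on chr9:122851914-122862128 (minus strand), can bind imprinting control regions alongside Zfp57. It was at 4.12, 4.50 and 3.11 log2 RPM in female MEFs and at 1.78 to 5.32 in the pluripotent libraries, and these ranges overlapped. The difference was 0.26 (95% interval -0.65 to 1.17, adjusted p = 0.591), and it was -0.14 without female MEFs replicate 3. The lowest library was F KSR4 replicate 3 with 51 reads, the library in which long genes were low; Zfp445 has 7409 bases of exon, the most of the 7, and the part of this tilt in its level was not tested.

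Dppa3, on chr6:122626410-122630272 (plus strand), was at the limit of detection in female MEFs with 1, 1 and 5 reads. In M KSR3 it had 104, 88 and 103 reads, and in the other pluripotent libraries 214 to 1496. Pooled over libraries, its RPM were 44.1 times those of MEFs in M KSR3 (exact 95% interval 21.2 to 111), and 237 (115 to 591) to 389 (188 to 968) times in the other pluripotent groups; these intervals cover counting error only. The fitted difference was 8.06 on the log2 scale (SE 0.50, adjusted p = 1.38e-10), and it fell to 4.56 when 1 was added to each value before the logarithm.

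Ctcf, on chr8:105636568-105682922 (plus strand), was at 6.39, 6.26 and 6.05 log2 RPM in female MEFs and at 6.94 to 8.62 elsewhere, a difference of 1.45 (SE 0.23, adjusted p = 2.08e-05). Both the lowest and the highest pluripotent library belonged to F KSR4 (replicates 3 and 1). Ctcfl, on chr2:173093609-173119525 (minus strand), had 0 reads in all 3 MEF libraries, which allows up to 3 reads per library. It had 7, 11 and 15 reads in M KSR3 and 5, 13 and 19 in M KSR5. The mean RPM of these lines was 3.80 and 4.32 times that limit, without allowance for counting error on these few reads. In F KSR2, F KSR4 and TX 2i ESCs it had 1 to 9 reads.

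Of 18 corepressor partners of Trim28 and Setdb1, 14 were higher in the pluripotent groups, 1 was lower and 3 were not called, with a median difference of 1.02 against 0.21 over all genes tested. Resf1 (2.32, SE 0.19), a partner of Setdb1, and Cbx1 (2.00, SE 0.15), an HP1 protein, rose most, and the chromatin remodeller Chd3 fell by 2.80 (SE 0.25). Scaling by the median of ratios moved the median of all genes to -0.03 and left the members' 5 calls in place.

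Of 14 DNA methylation enzymes and partners of Dppa3, 11 were higher, 1 was lower and 2 were not called (median 2.20). Dnmt3l, the cofactor of de novo methylation, rose by 10.06 (SE 0.51) and Tet1, which oxidises methylcytosine, by 6.41 (SE 0.31), whereas Tet3 fell by 1.71 (SE 0.26). Of 15 cohesin genes and other Ctcf partners, 14 were higher and 1 was not called (median 0.82), led by Parp1 (3.15, SE 0.15) and the cohesin subunit Smc3 (1.47, SE 0.12). Of 8 other KRAB zinc finger genes, 7 were tested and 6 were higher (median 1.08), led by Zfp600 (8.78, SE 0.32) and Zfp819 (8.55, SE 0.43).

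Dppa3 lies in a cluster with genes of pluripotent cells on chromosome 6. Of 5 of its neighbours, Nanog (11.06, SE 0.29), Gdf3 (10.81, SE 0.35) and Slc2a3 (6.21, SE 0.24) were higher in the pluripotent groups, and Foxj2 (fell by 1.83, SE 0.19) and Apobec1 (fell by 0.70, SE 0.29) were lower.

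The second comparison set the KSR-iPSCs against the TX 2i ESCs, which differ in line, sex of some lines and medium. Setdb1 alone was called, higher in KSR-iPSCs by 0.37 (SE 0.13, adjusted p = 0.0408), where 23.0% of all genes were called. The call was lost, with adjusted p up to 0.256, when any female MEF library, any M KSR3 library, F KSR2 replicate 1, M KSR5 replicate 1 or 2, or TX 2i ESCs replicate 2 or 3 was left out; the difference then lay between 0.27 and 0.38. The intervals of the uncalled members were -0.53 to 0.82 for Zfp57, -0.40 to 0.47 for Trim28, -0.48 to 0.51 for Ctcf, -0.91 to 0.95 for Zfp445 and -1.96 to 0.19 for Dppa3.

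By line, M KSR3 differed from TX 2i ESCs in 2 members (23.1% of all genes called): Setdb1 was higher by 1.02 (SE 0.16, adjusted p = 0.000232) and Dppa3 lower by 2.92 (SE 0.64, adjusted p = 0.00353). No member was called in F KSR2 (12.8% of all genes), F KSR4 (15.4%) or M KSR5 (18.2%) against TX 2i ESCs. All these contrasts share the TX 2i ESC libraries.

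This contrast called 23.0% of all genes, and the calls among DNA methylation genes, corepressor partners and cohesin genes lay near that share. Of the 14 DNA methylation genes, 1 was higher in KSR-iPSCs than in TX 2i ESCs, 2 were lower and 11 were not called. The de novo methyltransferase Dnmt3a rose by 1.59 (SE 0.26). Usp7, a deubiquitinase that binds Dnmt1, and the H3K9 methyltransferase Ehmt2 fell by 0.53 (SE 0.14) and 0.47 (SE 0.14). Of the 18 corepressor partners, 3 were higher, 1 was lower and 14 were not called. The Setdb1 cofactor Atf7ip (0.66, SE 0.20) and H3f3b (0.55, SE 0.18), a gene for histone H3.3, rose most, and Morc3 fell by 0.59 (SE 0.13). Of the 15 cohesin genes and Ctcf partners, Yy1 was higher (0.48, SE 0.14), the cohesin subunit Smc1a (fell by 0.67, SE 0.13) and the cohesin loader Mau2 (fell by 0.46, SE 0.15) were lower, and 12 were not called. None of the 7 tested KRAB genes was called. Of the 5 neighbours of Dppa3, Nanog (fell by 1.78, SE 0.30), Slc2a3 (fell by 1.24, SE 0.25) and Foxj2 (fell by 1.18, SE 0.19) were lower and 2 were not called.

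**Figure D2:**
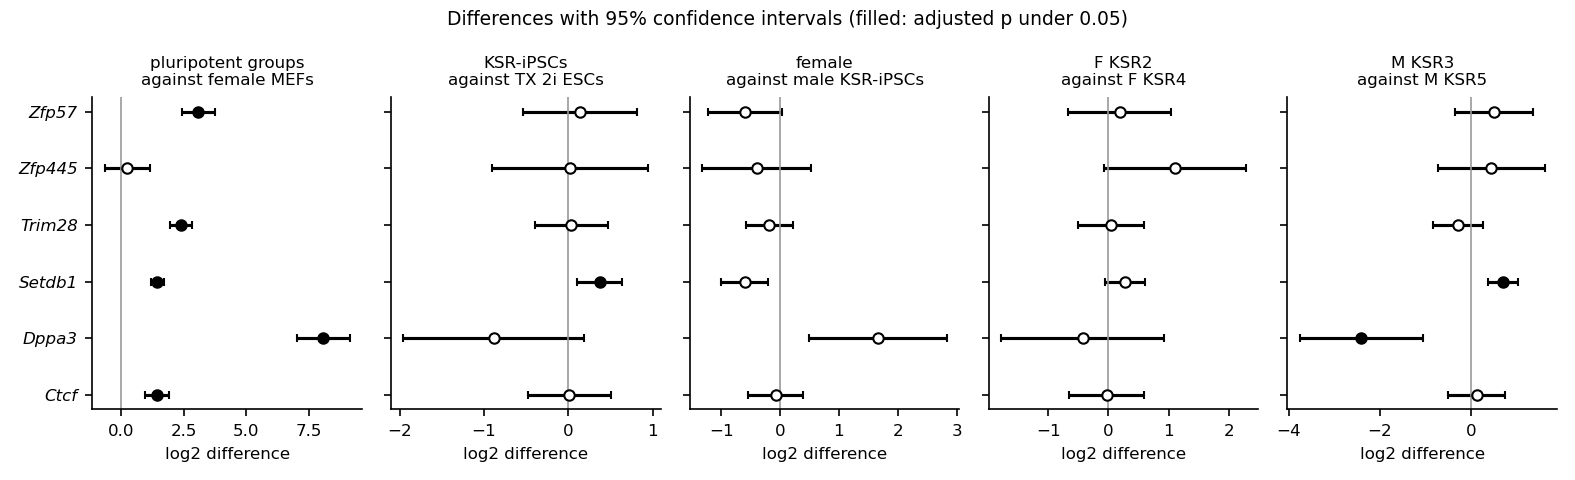
Log2 differences of the 6 tested members (rows) in 5 comparisons (panels) with 95% confidence intervals from limma; filled points have an adjusted p under 0.05. The horizontal scales differ between panels. In the first panel 5 members are called; of the comparisons among pluripotent groups, Setdb1 is called against TX 2i ESCs, and Setdb1 and Dppa3 between M KSR3 and M KSR5.

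The third comparison was between female and male KSR-iPSCs, 6 libraries of 2 lines against 6 libraries of 2 lines. No member was called by limma, where 2.87% of all 13609 genes were (216 higher and 174 lower in females, 261 and 129 with median-of-ratios scaling). At an unadjusted p under 0.05, 2 members, Setdb1 and Dppa3, passed, as did 2520 of all 13609 genes. Setdb1 was lower in females by 0.60 on the log2 scale (SE 0.19, adjusted p = 0.095) and Dppa3 higher by 1.67 (0.50 to 2.84, adjusted p = 0.114). M KSR3 lay outside the range of the female libraries in both genes and M KSR5 within it. Dppa3 had means of 2.43 log2 RPM in M KSR3 and 4.83 in M KSR5, against 5.09 in F KSR2 and 5.52 in F KSR4, and Setdb1 had 7.85 and 7.15 against 7.04 and 6.76. In the fit of all 18 libraries these 2 were called, as were 1523 of 14632 genes. That fit has a mean per line, so its error is the spread within clones and not between lines. No member was called with limma-voom on recovered reads, with line as a random effect or with each line's mean as 1 sample.

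Zfp57 differed by -0.59 (-1.22 to 0.03), Zfp445 by -0.40 (-1.32 to 0.52), Trim28 by -0.18 (-0.59 to 0.22) and Ctcf by -0.08 (-0.55 to 0.39) between female and male lines. With 2 lines a sex, and the lines of a sex from the same embryo, sex, line and embryo cannot be told apart. Among the partners, the cohesin subunits Smc1a (0.76, SE 0.14, adjusted p = 0.00764) and Stag2 (0.75, SE 0.18, adjusted p = 0.0302), both X-linked, were higher in females, and no corepressor or DNA methylation gene of the lists was called.

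Within a sex, F KSR2 and F KSR4 did not differ in any member at this threshold by limma. The test called 1.14% of all genes, 84 higher and 83 lower, against 61 and 137 with median-of-ratios scaling. No member had an unadjusted p under 0.05, where 2486 of all 14632 genes did, and limma-voom called none. The widest difference was that of Zfp445, 1.11 (95% interval -0.06 to 2.28), which was 0.29 without F KSR4 replicate 3. Dppa3 varied among libraries of F KSR2, at 3.58, 5.17 and 6.51 log2 RPM, more than between the lines.

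M KSR3 and M KSR5 differed in 2 of the 6 tested members (4.48% of all genes called). Setdb1 was at 7.83, 7.90 and 7.82 log2 RPM in M KSR3 and at 7.20, 7.19 and 7.06 in M KSR5. The lowest M KSR3 library stood above every library of the other groups, the nearest being F KSR2 replicate 1 at 7.32. The difference was 0.70 (SE 0.16, adjusted p = 0.0186).

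Dppa3 was at 2.60, 2.17 and 2.52 log2 RPM in M KSR3 and at 5.26, 4.59 and 4.65 in M KSR5. All 3 M KSR3 libraries lay below every other pluripotent library, the nearest being F KSR2 replicate 1 at 3.58. The difference was -2.41 (SE 0.64, adjusted p = 0.0417). Both calls rested on few libraries: Setdb1 was no longer called without M KSR3 replicate 2 or 3 or any M KSR5 library (differences 0.65 to 0.72, adjusted p up to 0.0891), and Dppa3 without any library of either line, F KSR2 replicate 2 or TX 2i ESCs replicate 1 or 2 (-2.53 to -2.19, adjusted p up to 0.165).

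Of the 5 neighbours of Dppa3, 0 were called between M KSR3 and M KSR5 (median -0.37, from -0.63 to 0.16), where 4.48% of all genes were. With so low a share, the lack of calls cannot tell whether they shared its difference. Apobec1, Gdf3, Slc2a3 and Foxj2 had the sign of Dppa3 and Nanog the opposite sign. Nanog, the closest of these neighbours to the pluripotency network, stood at 8.43 ± 0.40 log2 RPM in M KSR3 and 8.27 ± 0.48 in M KSR5. M KSR3 also had a higher sum of 12 endoderm and mesoderm markers, 216 to 255 RPM against 55.4 to 151 in M KSR5. Of the 10 of them tested, 3 were called higher, the endoderm genes Gata6 (2.77, SE 0.63), Gata4 (2.12, SE 0.56) and Dab2 (1.53, SE 0.36), and none lower. The mesoderm genes T (-0.80), Eomes (-0.87) and Hand1 (-1.37) had differences of the opposite sign and were not called. The sum of 12 germline genes was 407 to 493 RPM against 182 to 242, and of 11 tested, 1 was called, Asz1, at 2.45 to 3.82 log2 RPM in M KSR3 and -4.18 to -1.35 in M KSR5, where the lowest value is that of a single read or less. The part of these genes in the levels of Dppa3 and Setdb1 was not tested. Of the 18 corepressor partners, Cbx5, an HP1 protein, was lower in M KSR3 by 0.75 (SE 0.20, adjusted p = 0.0442) and 17 were not called. No DNA methylation, cohesin or KRAB gene of the lists was called.

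Reads over strain differences gave the parental share of each member. Exact 2-sided permutation tests against female MEFs cannot go below p = 0.1 with 3 against 3 libraries, so none of the 25 comparisons could pass, and the adjusted values started at 0.278. Intervals are Wilson 95% intervals for counting error.

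Trim28, with 791 to 5717 allelic reads a library, was near balance in every group. It was at 50.0% ± 0.7 maternal in female MEFs and at 45.8% to 47.9% in the pluripotent groups (exact p = 0.1 for each of the 5, lower in all 15 libraries). These 5 tests share the MEF libraries. Genes within 5 Mb of Trim28 were also lower, at 52.05% in female MEFs and 50.2% to 51.0% in the pluripotent groups. Zfp57 had more maternal than paternal reads in every group mean, from 63.6% ± 11.9 in F KSR4 to 75.9% ± 3.0 in M KSR5, and also in female MEFs at 73.4% ± 8.6, where the libraries held 11 to 19 allelic reads. In the 15 pluripotent libraries 24 to 267 reads stood behind each share, and F KSR4 replicate 3, the shallowest, was at 50.0%. Genes within 5 Mb of Zfp57 were at 52.1% to 54.0% maternal.

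Dppa3 was split by line. It had 96.7% ± 2.3 maternal reads in F KSR2, where all other genes of chromosome 6 together were at 96.8% ± 3.1, and chromosome 6 was near balance in every other group (49.3% to 54.0%). In those pluripotent groups Dppa3 leaned to the paternal allele: 40.8% ± 5.0 maternal in F KSR4, 33.3% ± 8.2 in TX 2i ESCs, 30.7% ± 5.9 in M KSR5 and 20.6% ± 8.8 in M KSR3. In M KSR3 the libraries held 18 maternal and 47 paternal, 13 and 43, and 7 and 58 reads. Female MEFs had 0 to 2 allelic reads of Dppa3, so no share could be given.

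Ctcf was at 62.6% to 66.0% maternal in the 3 libraries of M KSR3 and at 54.4% to 62.1% in those of F KSR4, and its means were 43.5% to 49.3% elsewhere. The other genes of chromosome 8 were at 65.3% ± 0.3 and 62.8% ± 5.5 in those 2 lines and at 50.3% to 54.7% in the other groups, and their levels in M KSR3 were above those of the other KSR lines by a median of 0.29 on the log2 scale, relative to all autosomes. Zfp445 was at 72.0% ± 2.5 maternal in F KSR2 and at 50.0% ± 8.2 in female MEFs (exact p = 0.1). The genes within 5 Mb of it were at 69.3% ± 0.4 maternal in F KSR2 and 53.0% to 54.4% elsewhere, and stood 0.59 above the other KSR lines on the log2 scale. In both cases the share of the member followed that of its surroundings; the share of the F KSR4 replicate 3 library, 100% for Zfp445, rested on 6 reads.

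**Figure D3:**
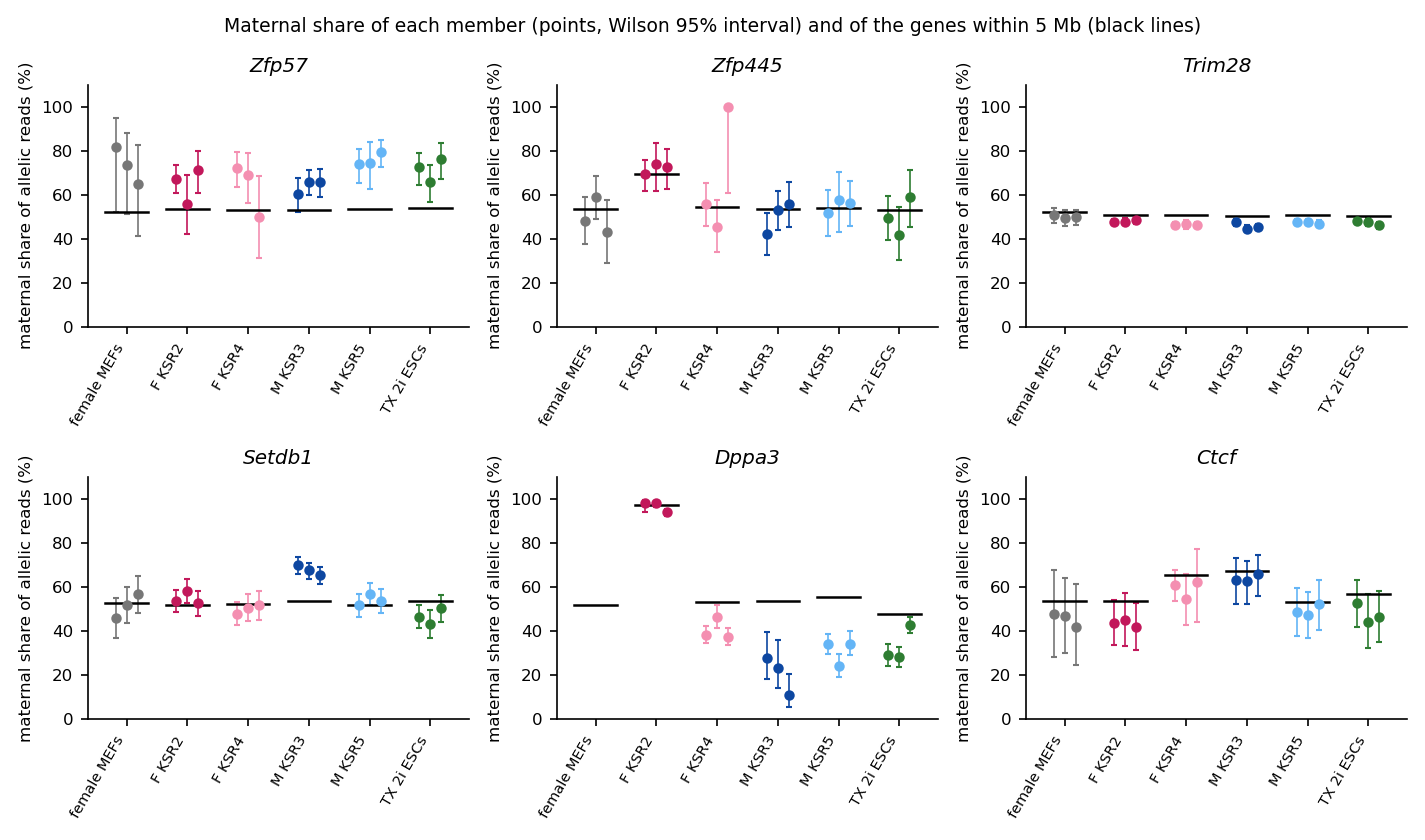
Maternal share of allelic reads (percent) of 6 members in each library with at least 5 allelic reads (points with Wilson 95% intervals), with black lines at the mean share of the other genes within 5 Mb. Dppa3 in F KSR2, Ctcf in M KSR3 and F KSR4, and Zfp445 in F KSR2 lie with their surroundings, while Setdb1 in M KSR3 (67.6%) lies above its own (53.7%) and Dppa3 lies below in the other lines.

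In M KSR3 the share of some members lay away from that of the genes within 5 Mb. Dppa3 was at 20.6% against 53.4%, and Zfp57 at 63.8% against 52.9%. These gaps were not particular to M KSR3. In TX 2i ESCs, for instance, Dppa3 was at 33.3% against 47.9% and Zfp57 at 71.4% against 54%. Setdb1 had 67.6% ± 2.4 maternal reads in M KSR3, against 46.7% to 54.8% in the other 5 groups. Genes within 5 Mb of Setdb1 were at 53.7% ± 0.6 and chromosome 3 at 53.5% ± 0.3. A closer window of 500 kb on each side was taken after these values were seen. It held 18 other genes with at least 20 allelic reads in each KSR-iPSC library. In 4 of them, Fam63a, Arnt, Ensa and Mcl1, all 3 M KSR3 libraries were more maternal than all 9 libraries of the other lines; among 7483 such autosomal genes 9.60% were.

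Among the genes measured, these 4 and Setdb1 lay in 1 stretch of the chromosome, from Fam63a at chr3:95281345-95296166 to Mcl1 at chr3:95658721-95663176, with Lass2 and Hormad1 between them. Mcl1, an inhibitor of apoptosis, was at 60.3% ± 1.5 maternal against 46.5% in the other lines (44.3% to 51.2% by library), and Arnt, a partner of the dioxin and hypoxia receptors, at 75.5% ± 1.0 against 65.5% (59.6% to 74.1%). Lass2 (68.5% ± 2.2) and Hormad1 (65.8% ± 4.5) overlapped the other lines. The levels moved less uniformly: relative to the other KSR lines, Setdb1 was higher by 0.87, Arnt by 0.64 and Ensa by 0.40 on the log2 scale, Mcl1 by 0.11, and none of the 18 neighbours separated in all libraries.

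**Figure D4:**
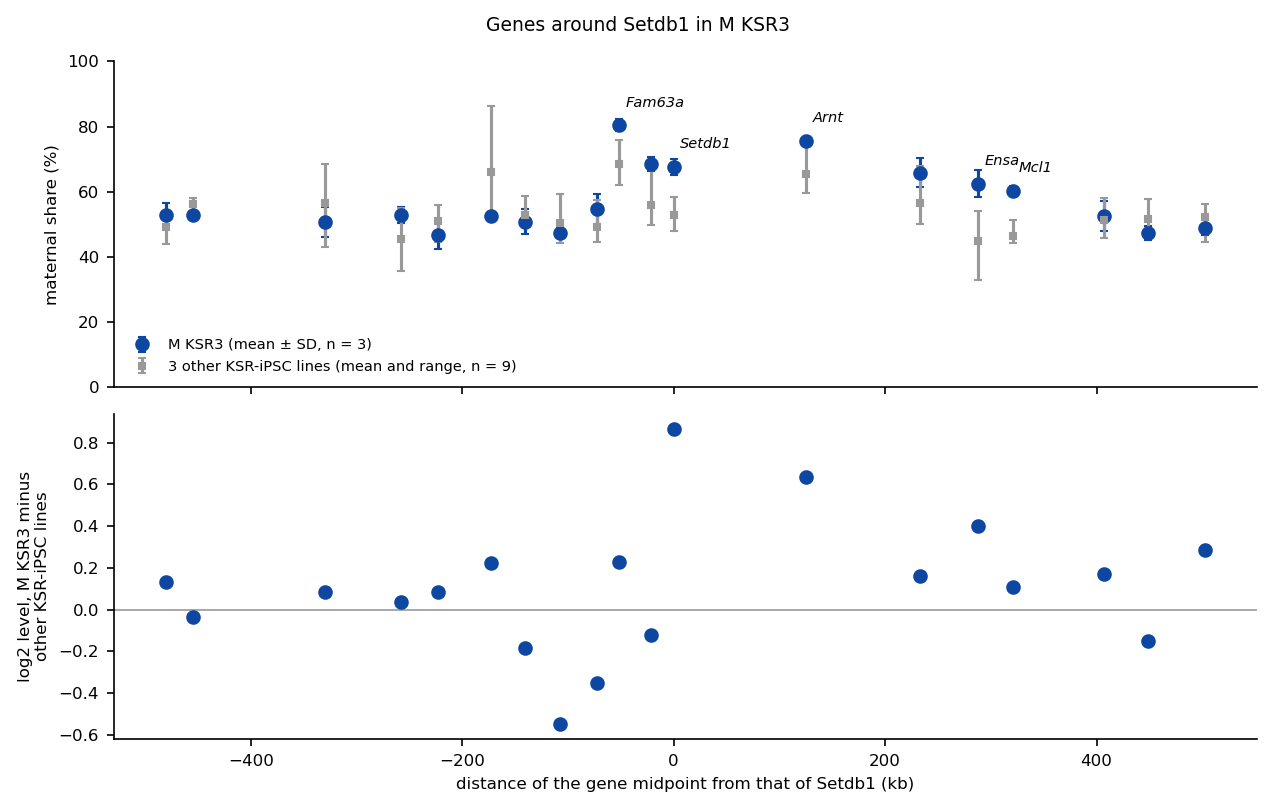
Maternal share (percent, upper panel) and log2 level in M KSR3 minus that in the other 3 KSR-iPSC lines (lower panel) for Setdb1 and 18 genes within 500 kb, by distance of the gene midpoint in kb. Blue points are M KSR3 (mean ± SD, n = 3) and grey squares the other lines (mean and range, n = 9). The shares of Fam63a, Setdb1, Arnt, Ensa and Mcl1 stand above all other libraries, while Lass2 and Hormad1 between them overlap. Setdb1 has the highest difference in level, 0.87.

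The imprinted genes themselves gave the readout that these proteins act on. Over 17 imprinted genes, the mean share of reads from the silent allele (the maternal allele of paternally expressed genes and the reverse) was 0.922% ± 0.314 in female MEFs (SD, n = 3). It was lowest among the pluripotent groups in M KSR5, at 39.7% ± 4.7, and highest in F KSR2, at 60.5% ± 1.4, with F KSR4 at 47.9% ± 3.6, M KSR3 at 50.3% ± 3.9 and TX 2i ESCs at 51.0% ± 2.0 between them. The F KSR2 mean includes Sgce (96.7%), Peg10 (93.0%) and Mest (94.4%) of its maternal chromosome 6. Without imprinted genes of chromosomes 1, 6, 12 and 15, F KSR2 libraries were at 51.6% to 56.7%. They then overlapped F KSR4 (50.6% to 51.6%), M KSR3 (47.2% to 53.9%) and TX 2i ESCs (49.3% to 54.0%). M KSR5 stayed lowest (38.4% to 45.8%). The levels are set beside these shares as a description only, since the libraries fall into clusters by line. The study shortlisted its 17 imprinted genes by, among other criteria, expression from a single allele in MEFs. A low silent share in female MEFs was thus fixed by the choice of genes. These libraries also had the lowest Zfp57, Trim28, Setdb1, Dppa3 and Ctcf, and no link between level and share can be read from them.

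Among the pluripotent groups the orders did not run together. M KSR5, with the lowest silent share, had Zfp57 at 8.52 ± 0.70, Trim28 at 10.88 ± 0.18 and Dppa3 at 4.83 ± 0.37 log2 RPM. F KSR2, highest with its maternal chromosome 6 counted, had Zfp57 at 8.26 ± 0.83, Trim28 at 10.59 ± 0.21 and Dppa3 at 5.09 ± 1.46. Its 3 Dppa3 levels of 3.58, 5.17 and 6.51 stood beside silent shares of 61.9%, 60.6% and 59.1%. Without imprinted genes of chromosomes 1, 6, 12 and 15 its shares overlapped those of F KSR4, M KSR3 and TX 2i ESCs. M KSR3, with the lowest Dppa3 and the highest Setdb1 and Zfp57 means, had a silent share between M KSR5 and F KSR2 over all the imprinted genes. For Mest, whose promoter stretch is printed above, the silent share was 11.1% ± 12.7 in M KSR5, 47.1% ± 2.9 in M KSR3, 38.0% ± 14.2 in F KSR4 and 94.4% ± 3.7 in F KSR2, where chromosome 6 was maternal throughout. For H19, beside the Ctcf letters, it was 0.115% ± 0.10 in female MEFs and 35.7% to 52.9% in the pluripotent groups.

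**Figure D5:**
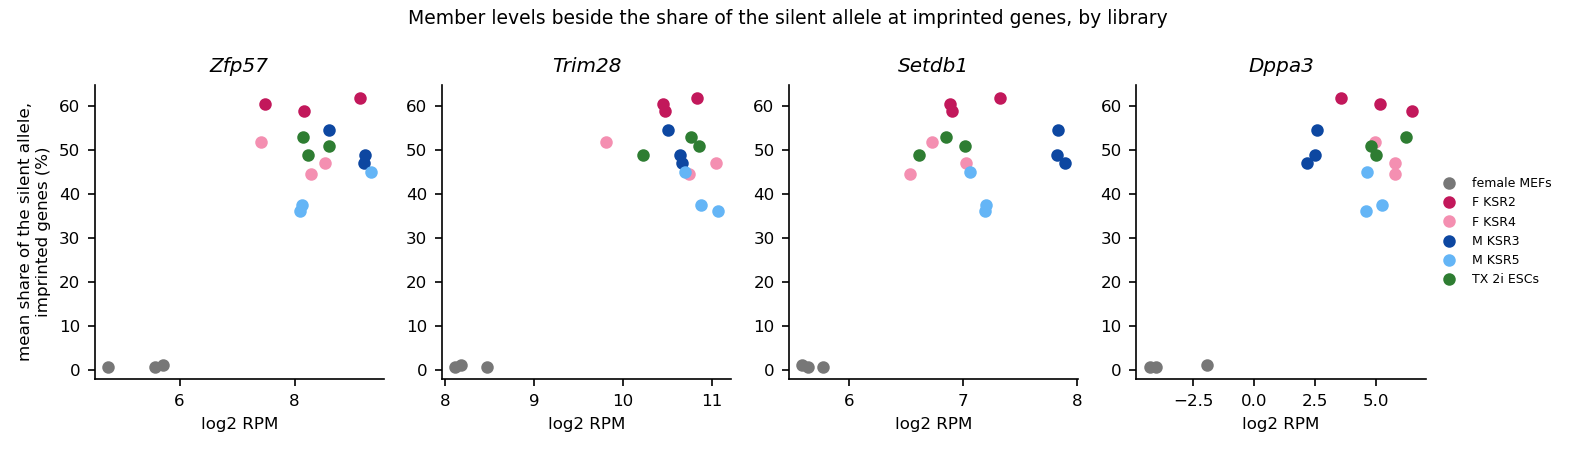
Level of Zfp57, Trim28, Setdb1 and Dppa3 (log2 RPM, horizontal) beside the mean share of the silent allele over the imprinted genes (percent, vertical), 1 point a library, coloured by group. Female MEFs lie at low levels and at shares of 0.690% to 1.28%, which follow from the choice of genes expressed from a single allele in MEFs. The pluripotent libraries lie between 36.3% and 61.9% with no common order between level and share.

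The genes whose levels were most like those of the members were found over the 15 pluripotent libraries among 9952 genes above 2 log2 RPM in at least 12 of them. For Zfp57 they were Traf6 (Pearson r = 0.92), AI462493 (0.91) and Ap4m1 (0.90), for Trim28 Lrrc14 (0.92), Gpatch4 (0.90) and Cxxc1 (0.90), and for Dppa3 Sap30l (0.92), Nt5c3 (0.89) and Ifitm1 (0.89). After group means were subtracted, r was 0.93, 0.90 and 0.90 for the first set, 0.94, 0.92 and 0.94 for the second and 0.75, 0.77 and 0.57 for the last. These are descriptions over libraries that share lines, depth and preparation. Between members, Setdb1 and Dppa3 had r = -0.87 over the 15 libraries and -0.41 within groups, and Zfp57 and Trim28 0.42 and 0.48.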

How the data were processed

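RNA-seq reads of 18 libraries were trimmed with Trim Galore 0.6.1 and aligned with HISAT2 2.1.0 to GRCm38 by the authors, who split them by strain and counted them per gene, by strand, in SeqMonk; edgeR is also named in the submitters' notes. The authors deposited log2 RPM (reads of a gene scaled to the library's total); the study's methods speak of RPKM, but values were whole multiples of 1 read (within 0.05 read in at least 99.97% of values of each library) whatever the gene's length, and 0 reads are held at 0.9 read. A table of 25965 genes gave 4 columns per library, of which all reads, maternal (C57BL/6) and paternal (CAST) reads were used; the 18 columns of unassigned reads were not. Methylation samples of the series were not analysed here. Gene positions were those deposited with the values, exon lengths came from GENCODE vM21 and sequences from RefSeq (GRCm38.p6). The Zfp57 and Ctcf letters searched were entered from general knowledge, not read from a file.

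Log2 values were tested with limma 3.58.1 (intensity trend, R 4.3.3) on genes above 0 log2 RPM in at least 3 of the libraries fitted, with Benjamini-Hochberg adjustment over all genes and a threshold of 0.05: female against male lines in 12 libraries, other comparisons in a fit of 18 libraries by group. On simulated data the fit recovered 90% to 97% of 2-fold changes in the comparisons against MEFs, against TX 2i ESCs and between sexes. It recovered 54% between F KSR2 and F KSR4 and 61% between M KSR3 and M KSR5. The simulated lines of a sex did not differ, so the simulation cannot show how line differences affect the test between sexes. Allelic shares needed at least 5 allelic reads, and their Wilson 95% intervals cover counting error only. Other scalings, filters, limma-voom on recovered reads, a replicate block and leaving out each library were tried. Python 3.11.15 with scipy 1.17.1 was used for exact tests. Named genes are all members, the 2 genes of each list with the largest called change in each direction in the comparisons where the list is described (pluripotency, fibroblast and imprinted genes are given by sums or shares), and the 3 genes most like Zfp57, Trim28 and Dppa3; Slc2a3, Foxj2 against TX 2i ESCs, Dab2, T, Eomes, Hand1 and the neighbours of Setdb1 were named after their values were seen. The members and gene lists were chosen with earlier results of these data known. Precision is limited by depth for Ctcfl and for Dppa3 in fibroblasts.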

Additional observations from a re-analysis of the deposited data

Results flagged for a closer look

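Setdb1 and Dppa3 differed between M KSR3 and M KSR5 in their contrast with TX 2i ESCs, by 0.70 and -2.41 on the log2 scale (M KSR3 minus M KSR5), tested as the difference between the lines in limma (adjusted p = 0.0186 and 0.0417). The TX 2i ESCs are common to both contrasts, so these are the differences between the lines given above. Both had the same direction in 3 of 3 libraries of each line, which comes from the values that led to the flag and adds no support. Zfp445 in M KSR5 replicate 2, at 3.58 log2 RPM, stood apart from the other 5 male KSR-iPSC libraries by Dixon's test (gap over range 0.69, critical value 0.625). Of 16 sets of 6 libraries looked at in this way, 1 had such a library, and chance alone gives about 1 in 20.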

How the results depend on the processing

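The 5 calls between pluripotent groups and female MEFs stood in all 26 alternatives, and with no filter on low values Ctcfl was called too (6). Between female and male lines 2 members were called in the fit of all 18 libraries, where 1523 genes were; the other fits called 232 genes (no filter), 665 (M KSR5 replicate 3 and F KSR4 replicate 2 left out together), 138 (line as a random effect) and 4 (each line's mean as 1 sample). No filter and no intensity trend each gave 0 members against TX 2i ESCs and 1 member between M KSR3 and M KSR5. With those 2 libraries left out, 311 genes were called between F KSR2 and F KSR4 and 1182 between M KSR3 and M KSR5, and the signs of Zfp445 against TX 2i ESCs (-0.059) and of Zfp57 (-0.14) and Trim28 (-0.31) between the female lines turned; median-of-ratios scaling turned Trim28 there to -0.067. The replicate block gave 282 genes between the female lines and changed no call on a member. As a hint from the data, not the design, the correlation of deviations from the group means was over 0.1 in 13 of 45 pairs of same-numbered libraries and 12 of 90 others (mean 0.04 and -0.02), 9 of 18 libraries correlated best with their own number, and the difference between long and short genes had the same order by number in 5 of 5 pluripotent groups. Since r was not over 0.1 in every pair and no label states a shared batch, the fit without the block was kept. Leaving out 1 library at a time gave 187 to 521 genes between the sexes, 2125 to 4317 against TX 2i ESCs, 66 to 1660 between F KSR2 and F KSR4 and 145 to 1182 between M KSR3 and M KSR5, with 0 to 1 members called against TX 2i ESCs and 0 to 2 between M KSR3 and M KSR5. It turned the sign of uncalled members: Zfp445 (-0.67 to 0.039 between the sexes, -0.14 to 0.56 against MEFs, -0.13 to 0.23 against TX 2i ESCs), Ctcf (-0.27 to 0.064 between the sexes, -0.13 to 0.12 against TX 2i ESCs), Trim28 (-0.16 to 0.16 against TX 2i ESCs) and, between the female lines, Zfp57 (-0.25 to 0.58), Trim28 (-0.31 to 0.31), Dppa3 (-1.14 to 0.33) and Ctcf (-0.39 to 0.45). The silent share was 0.0136% in female MEFs, 54.1% in F KSR2 and 45.3% in M KSR5 as a median over genes, and 54.3% in F KSR2 without imprinted genes of chromosomes 1, 6, 12 and 15. Where a value moved, the cause was not tested. Depth limits Ctcfl in every group and the allelic shares of Dppa3 in MEFs.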
